A study of Mus musculus with 9 samples.

Results

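The Nr4a genes Nr4a1, Nr4a2 and Nr4a3 were followed through 9 skeletal muscles of the mouse. They were chosen by gene family, as the 3 Nr4a genes among 22180 genes measured by a probe set of exactly 1 gene. The family was picked because Nr4a1 was higher in hindlimb than in head arrays. The hindlimb and head values of the family are therefore a description, without a test. Each of the 3 genes had 1 probe set.

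All muscles came from male C57BL/6J mice, an inbred strain, at 12 weeks of age, with no treatment or transgene named in the labels. Labelled cDNA made from the total RNA of each frozen muscle was read on 1 whole-transcript GeneChip array. By general anatomy, 4 arrays were of hindlimb muscles: the soleus and gastrocnemius of the calf, the tibialis anterior of the shin and the rectus femoris of the thigh. Another 3 were of shoulder and forelimb muscles (triceps, supraspinatus and trapezius), and 2 of head muscles, the jaw-opening digastric and the jaw-closing masseter. The number of animals per array, the time of day and the order of dissection are not given in the sources used here. Each SD is a spread between different muscles of a region, and it holds differences between muscles, animals and arrays together.

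Nr4a receptors are orphan nuclear receptors, whose activity is set mainly by how much of the protein is made and not by a ligand. They are immediate early genes: their transcription is switched on within a short time by cAMP, calcium and growth factor signals, often through cAMP response elements (CREs) bound by CREB. In skeletal muscle they are induced by exercise and by beta adrenergic stimulation, and Nr4a1 and Nr4a3 have been linked there to genes of glucose, glycogen and lipid use. The proteins bind a DNA element called NBRE, and Nr4a1 and Nr4a2 can also pair with retinoid X receptors.

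The promoters are shown because CREs are the family's best known control element. Each line gives the 250 bases before the transcription start, from RefSeq on build GRCm38.p6, read 5′ to 3′ on the strand of the gene. The table used held 1 start for each gene. The RefSeq gene span begins 12944 bases before this start in Nr4a1 and 227 bases before it in Nr4a3, and at it in Nr4a2. Promoters of other starts were therefore not examined. The Nr4a1 window and most of the Nr4a3 window thus lie inside the gene span. Capitals mark the short CRE TGACG, or CGTCA where it lies on the opposite strand, and in Nr4a1 the longer CRE-like element TGCGTCA, which ends in CGTCA and so overlaps it. The windows lie at chr15:101266596-101266845 on the plus strand for Nr4a1, chr2:57124004-57124253 on the minus strand for Nr4a2 and chr4:48045055-48045304 on the plus strand for Nr4a3.
Nr4a1: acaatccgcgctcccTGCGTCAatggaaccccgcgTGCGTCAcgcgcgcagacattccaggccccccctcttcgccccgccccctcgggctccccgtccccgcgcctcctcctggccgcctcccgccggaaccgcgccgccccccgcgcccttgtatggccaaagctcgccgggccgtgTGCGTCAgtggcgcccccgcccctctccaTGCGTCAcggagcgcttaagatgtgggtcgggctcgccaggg
Nr4a2: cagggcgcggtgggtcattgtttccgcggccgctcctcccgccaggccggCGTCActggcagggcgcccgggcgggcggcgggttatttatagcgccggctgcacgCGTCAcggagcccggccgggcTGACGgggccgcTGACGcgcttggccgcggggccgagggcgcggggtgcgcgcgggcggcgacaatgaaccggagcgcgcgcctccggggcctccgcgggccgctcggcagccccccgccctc
Nr4a3: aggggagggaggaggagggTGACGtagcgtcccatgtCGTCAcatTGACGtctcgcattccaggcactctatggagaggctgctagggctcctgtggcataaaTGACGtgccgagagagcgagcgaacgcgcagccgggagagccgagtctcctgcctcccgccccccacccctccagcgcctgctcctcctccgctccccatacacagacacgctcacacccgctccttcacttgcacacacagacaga

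Each of the 3 windows held 4 short CREs. Both strands were searched in 32851 windows of this length, some of which belong to the same gene and overlap. At least 1 short CRE was found in 17.77% of the windows and at least 4 in 0.137% of them, or 45 windows. In Nr4a1 all 4 copies were part of TGCGTCA. This element was found in 1.75% of windows, and 1 window, that of Nr4a1, held it 4 times. In Nr4a1 the pair nearest to the start began at -71 and -42, with the far pair at -235 and -215. The Nr4a2 copies began between -200 and -111 and those of Nr4a3 between -231 and -147. Of the Nr4a3 copies, those at -213, -205 and -147 lie inside the gene span. None of the 3 windows held the full CRE TGACGTCA (1.55% of windows) or the NBRE letters AAAGGTCA (1.34%). The short CRE contains a CG, and the windows were richer in G and C, at 74.4% for Nr4a1, 80.0% for Nr4a2 and 63.6% for Nr4a3, than the median window (52.4%). The part of base composition in these counts was not tested.

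**Figure D1:**
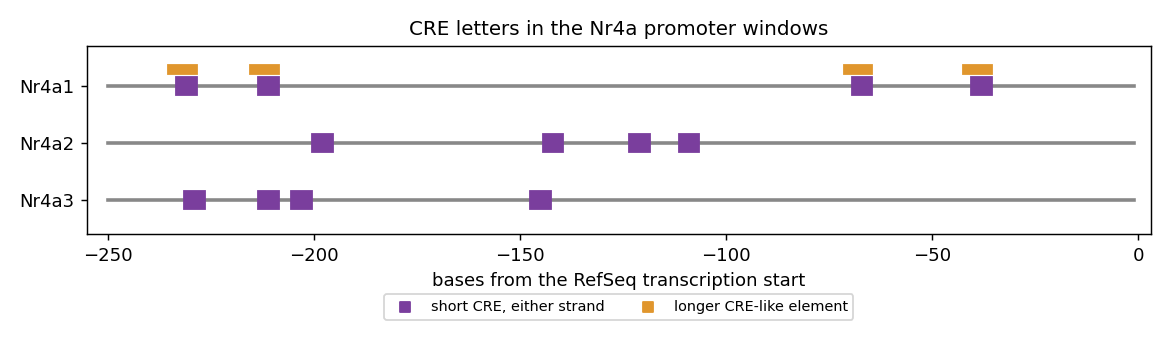
Position of CRE letters in the 250 bases before the RefSeq start of each Nr4a gene, with bases from the start on the x axis and a gene per row. Purple boxes are short CREs on either strand, 4 per gene, and orange boxes are the longer CRE-like element, found 4 times in Nr4a1 and in neither of the others.

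Nr4a1, the member most studied in muscle, had log2 values of 8.75 in rectus femoris, 9.09 in tibialis anterior, 8.84 in soleus and 8.89 in gastrocnemius. In the shoulder and forelimb it had 8.18 in trapezius, 8.60 in supraspinatus and 8.37 in triceps, and in the head 7.47 in masseter and 7.26 in digastric. The 3 regions did not overlap, with hindlimb muscles highest and head muscles lowest. The means were 8.89 ± 0.15 (SD, n = 4) in hindlimb, 8.38 ± 0.21 (SD, n = 3) in shoulder and forelimb and 7.37 ± 0.15 (SD, n = 2) in head muscles. The hindlimb and head difference that chose the gene was 1.52 on the log2 scale, or 2.88-fold.

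The step between head and limb was wide, with 0.71 between trapezius and masseter. The step between hindlimb and shoulder was narrow, with 0.15 between rectus femoris and supraspinatus, which was less than the pooled within-region SD of 0.17. Gastrocnemius and soleus (0.05 apart) and soleus and rectus femoris (0.09 apart) were also within that SD. The other 5 neighbours in the order of the 9 muscles were farther apart than it. The order of the regions without overlap was kept after median centring, quantile and cyclic loess normalization, with 0.06, 0.13 and 0.20 between the lowest hindlimb and the highest shoulder and forelimb array. Tibialis anterior was the highest array as deposited and after median centring, and not after the other two scalings.

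An order of hindlimb above shoulder and forelimb above head, without overlap, was found for 44 of 22180 genes (0.198%). Among these Nr4a1 had the second largest hindlimb and head difference. This order holds the contrast that chose Nr4a1, so the count describes the gene and supports nothing.

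Nr4a2, a family member best known for its role in dopamine neurons, had lower values, closer to the array medians of 3.34 to 3.44. It had 4.83 in rectus femoris, 4.92 in tibialis anterior, 5.14 in soleus and 4.57 in gastrocnemius. The shoulder and forelimb values were 4.76 in trapezius, 5.46 in supraspinatus and 4.81 in triceps, against 3.03 in masseter and 4.34 in digastric. The hindlimb and the shoulder and forelimb arrays overlapped in part, with gastrocnemius lowest and supraspinatus highest of the 7, and both head arrays lay below all 7 others. Masseter stood apart, 1.32 below the next array, a 2.49-fold difference. Its value was under the median of its array (3.37), where signal cannot be told from background, so the fold may be understated. No other pair of neighbours was farther apart than the pooled within-region SD of 0.47. Masseter lay as far below all other arrays for 4 of 22180 genes, Nr4a2 included.

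Nr4a3 had its highest value in tibialis anterior, at 6.32, and 4.61 in rectus femoris, 4.50 in soleus and 4.46 in gastrocnemius. In the shoulder and forelimb it had 4.08 in trapezius, 4.93 in supraspinatus and 4.13 in triceps, and in the head 5.05 in masseter and 4.73 in digastric. Without tibialis anterior, the hindlimb values lay below both head values and inside the shoulder and forelimb range. Tibialis anterior was 1.27 above masseter, the next array, or 2.42-fold, and this gap was from 1.18 to 1.30 under the 3 other scalings. A gap as wide between tibialis anterior and the next array was found for 4 of 22180 genes, Nr4a3 included. With 1 array of this muscle the gap has no replicate check. The other neighbours differed by less than the pooled within-region SD of 0.70, which tibialis anterior itself widened.

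**Figure D2:**
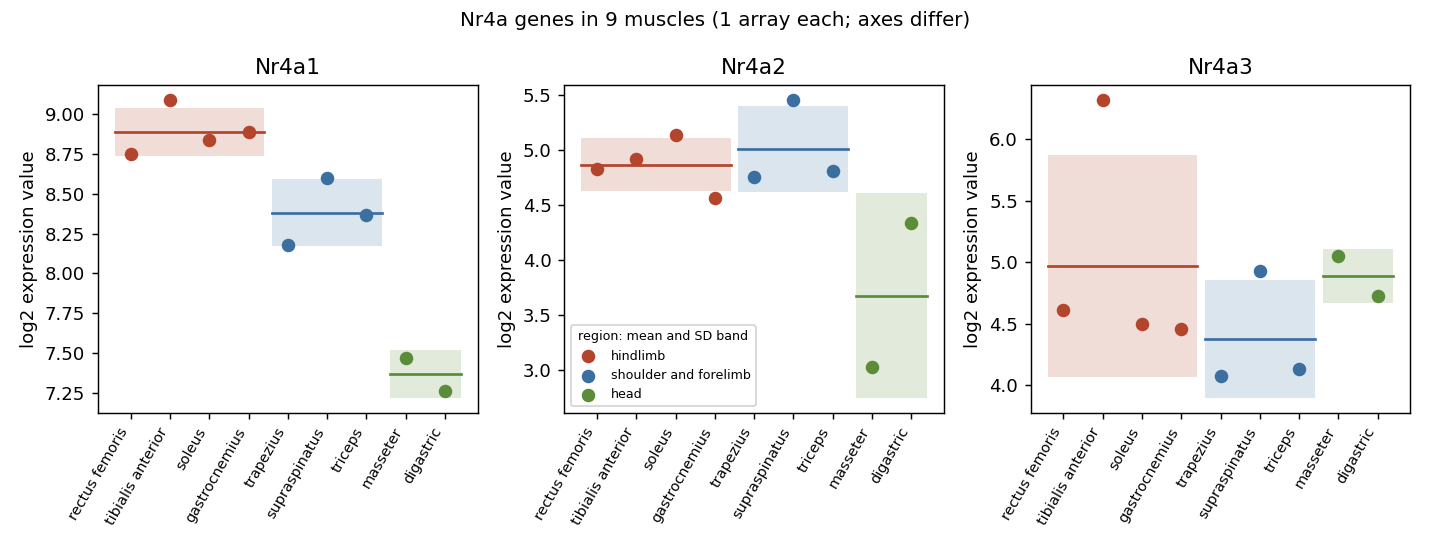
Log2 expression values (y axes, which differ between panels) of Nr4a1, Nr4a2 and Nr4a3 in 9 muscles (x axis), 1 point per array, with a line at the mean of each region and a band of 1 SD. Nr4a1 stepped down from hindlimb (8.75 to 9.09) over shoulder and forelimb (8.18 to 8.60) to head (7.26 to 7.47), Nr4a2 was lowest in masseter (3.03) and Nr4a3 highest in tibialis anterior (6.32).

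In what follows, a difference between 2 regions is the first named minus the second, on the log2 scale. The hindlimb against the shoulder and forelimb was a contrast that did not choose the family, although it shares the hindlimb arrays with the one that did. Nr4a1 was 0.51 higher on the log2 scale in hindlimb muscles, or 1.42-fold (SE 0.15, 95% interval 0.16 to 0.85). It did not pass limma's test over all genes (unadjusted p = 0.00806, adjusted p = 1.0), where it ranked 80th by p. Its hindlimb values also entered the choice, so this p and rank are not independent of it. Each of the 4 hindlimb arrays lay above each of the 3 others, which held for 2.32% of all genes. Nr4a2 differed by -0.14 (SE 0.30, 95% interval -0.81 to 0.52) and Nr4a3 by 0.59 (SE 0.42, 95% interval -0.35 to 1.53), both with an adjusted p of 1.0 in limma. The Nr4a3 difference was 0.14 without tibialis anterior, and the Nr4a2 difference turned to 0.08 without supraspinatus. In this contrast 0 of 3 members passed, beside 1 of 22180 genes (0.00451%), the homeobox gene Hoxc10, named after its values were seen.

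The shoulder and forelimb against the head shares the head arrays with the contrast of choice. Nr4a1 was 1.02 higher in shoulder and forelimb muscles, or 2.03-fold (SE 0.19, 95% interval 0.61 to 1.43). It ranked 5th of 22180 genes by p, and did not pass limma's test after adjustment (unadjusted p = 0.000226, adjusted p = 0.589). The head values that chose Nr4a1 also enter this difference. Its p and rank are therefore not independent of the choice and may be favoured by it. Nr4a2 was at 5.01 ± 0.39 (SD, n = 3) in shoulder and forelimb and at 3.68 ± 0.93 (SD, n = 2) in head muscles. Its difference was 1.33, or 2.51-fold (SE 0.36, 95% interval 0.53 to 2.12), which did not pass (limma, unadjusted p = 0.00377, adjusted p = 0.681). This difference was 0.67 without masseter and 1.98 without digastric. Nr4a3 differed by -0.51 (SE 0.51, 95% interval -1.63 to 0.61, limma adjusted p = 0.835). For Nr4a1 and Nr4a2 every shoulder and forelimb array lay above both head arrays, as for 15.2% of all genes. In limma 0 of 22180 genes passed in this contrast (0%), with 702 higher and 832 lower at an unadjusted p under 0.05.

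Between hindlimb and head, the contrast of choice, Nr4a2 was at 4.87 ± 0.24 (SD, n = 4) and 3.68 ± 0.93 (SD, n = 2), a difference of 1.18. Nr4a3 was at 4.97 ± 0.90 (SD, n = 4) and 4.89 ± 0.22 (SD, n = 2), a difference of 0.08. Every hindlimb array lay above both head arrays for Nr4a1 and Nr4a2, as for 11.4% of all genes. The Nr4a2 difference was 0.52 without masseter and 1.84 without digastric, and that of Nr4a3 fell to -0.37 without tibialis anterior. Limma called 2 of 22180 genes in this contrast (0.00902%), Hoxc10 and Nr4a1 itself. Nr4a1 was chosen on this contrast, so its call describes the gene and supports nothing. The Nr4a1 call was made under 5 of 20 alternatives and lost under the other 15, among them the fits without any single array other than soleus. A hindlimb and head difference of 1.52 or more was found for 25 genes (0.113%), Nr4a1 included.

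The 3 members did not share 1 pattern over the muscles. Over the 9 arrays, Pearson's r was 0.69 for Nr4a1 and Nr4a2 (Spearman's rho 0.58), and it was 0.05 without masseter and digastric, so that it rested on the head arrays. For Nr4a1 and Nr4a3 r was 0.21 (rho 0.10), and 0.73 without the same 2 arrays. Nr4a1 and Nr4a3 had r = 0.79 after the region means were subtracted, and r = -0.34 over the arrays without tibialis anterior, which was high in both genes. Nr4a2 and Nr4a3 had r = -0.05 (rho 0.10). These values describe 9 arrays that share regions and a normalization.

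The genes whose pattern was most like a member's were found by Pearson's r over the 9 arrays, among 2828 named genes with a mean of at least 5 and an SD of at least 0.3 (log2). For Nr4a1 they were Ip6k3 (r = 0.98), an inositol hexakisphosphate kinase gene of skeletal muscle, Adamts1 (r = 0.96), a secreted metalloprotease gene, and Hbegf (r = 0.96), an EGF family growth factor gene. Rbm20 (r = 0.88), a splicing regulator of titin in heart, and the clock gene Per1 (r = 0.86) followed. The like genes of each member were picked on these same 9 arrays, so that a shared order of arrays follows largely from the choice.

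Ip6k3, the gene most like Nr4a1, was at 7.39 in rectus femoris, 7.53 in tibialis anterior, 7.40 in soleus and 7.42 in gastrocnemius. It was at 6.96 in trapezius, 7.30 in supraspinatus and 7.23 in triceps, and at 6.62 in masseter and 6.69 in digastric. As for Nr4a1 the regions did not overlap, tibialis anterior was the highest hindlimb array and trapezius the lowest of the shoulder. In the head the order of the pair differed, with masseter above digastric for Nr4a1 and below it for Ip6k3. After the region means were subtracted r was 0.76 for Ip6k3, 0.78 for Adamts1, 0.81 for Hbegf and 0.89 for Rbm20, and 0.03 for Per1. Hbegf was at 6.11 ± 0.26 (SD, n = 4) in hindlimb, 5.67 ± 0.38 (SD, n = 3) in shoulder and forelimb and 4.81 ± 0.03 (SD, n = 2) in head muscles.

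For Nr4a2 the most alike gene was Ccn1 (r = 0.95), which encodes a matricellular protein and is itself an immediate early gene. Ccn1 was at 5.29 in masseter and from 6.72 to 7.89 in the 8 other arrays, with soleus highest, and kept r = 0.93 after region means were subtracted. Next were Dact1 (r = 0.91), a Wnt pathway regulator, the muscle ankyrin repeat gene Ankrd23 (r = 0.91), the laminin-binding integrin gene Itga7 (r = 0.87) and the secreted Wnt inhibitor Frzb (r = 0.84). Without the 2 arrays farthest from the Nr4a2 median, r was 0.81 for Ccn1, 0.63 for Ankrd23 and from 0.22 to 0.54 for the others.

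For Nr4a3 they were Msrb3 (r = 0.89), a methionine sulfoxide reductase gene, Eprs (r = 0.85), a tRNA synthetase gene, the kinase gene Nek7 (r = 0.84), the transporter gene Slc47a1 (r = 0.83) and Gfpt1 (r = 0.82), which starts the hexosamine pathway. Tibialis anterior was the highest array for each of these 5 genes, at 7.78 for Msrb3, 8.33 for Eprs and 8.19 for Nek7. Without the 2 arrays farthest from the Nr4a3 median, r was 0.79 for Msrb3, 0.72 for Eprs, 0.91 for Nek7, 0.43 for Slc47a1 and 0.51 for Gfpt1.

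**Figure D3:**
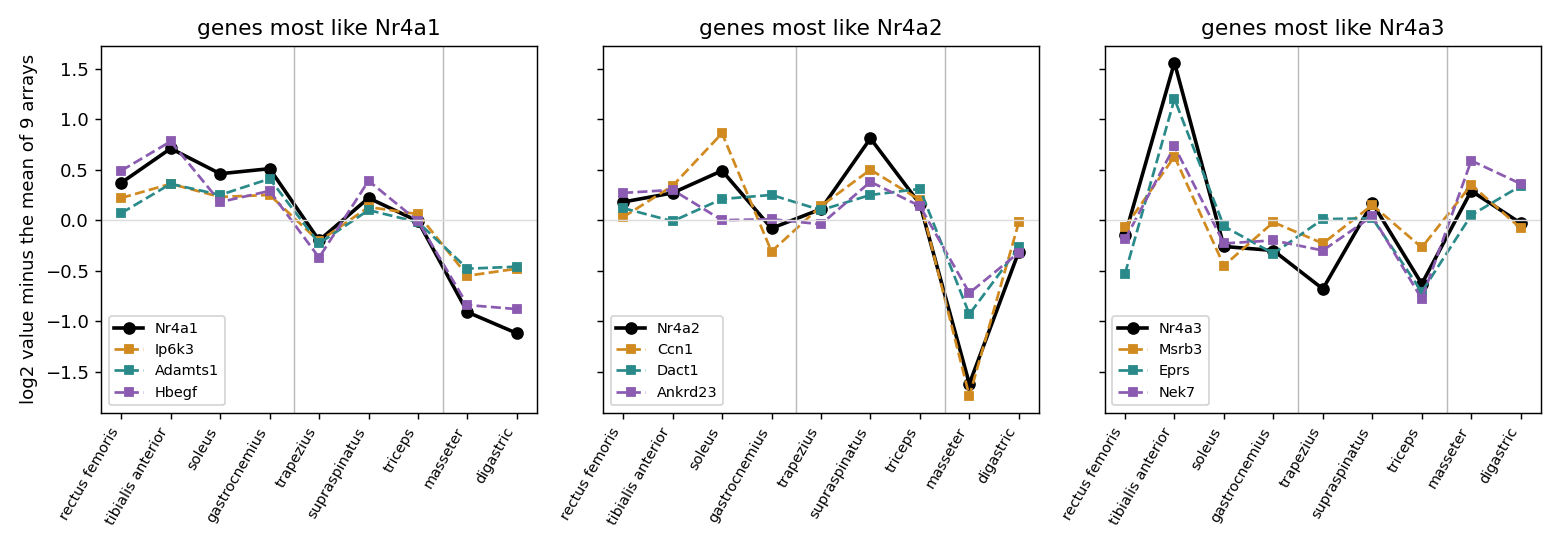
Log2 value minus the gene's own mean over 9 arrays (y axis) by muscle (x axis) for each Nr4a gene in black and the 3 genes most like it in colour, with grey lines between regions. Ip6k3, Adamts1 and Hbegf were low in masseter and digastric as Nr4a1 was, Ccn1 was low in masseter as Nr4a2 was, and Msrb3, Eprs and Nek7 were highest in tibialis anterior as Nr4a3 was.

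Other immediate early genes were set beside the family by a list of 34, of which 33 were measured. Between hindlimb and shoulder and forelimb muscles 0 of 33 passed limma's test, 24 had positive differences (48.2% of all genes did) and the median was 0.11, against -0.01 over all genes. At an unadjusted p under 0.05 there was 1 higher gene, Egr3 (0.52), and there were 3 lower ones, Gadd45g (-0.83), Cebpd (-0.49) and Rgs2 (-1.04), beside 1.84% and 1.81% of all genes. The Rgs2 difference was -0.45 without trapezius. Between shoulder and forelimb and head muscles 0 passed, 23 were positive (55.5% of all genes) and the median was 0.17, against 0.04 over all genes. Ccn1 (1.16) and Egr2 (0.63) were among 5 higher genes at an unadjusted p under 0.05, beside 3.17% of all genes, and 0 were lower, beside 3.75%. The Ccn1 difference was 0.30 without masseter and 2.02 without digastric. Every shoulder and forelimb array lay above both head arrays for 11 of the 33 genes, a larger share than the 15.2% of all genes.

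Single genes of the list differed in how they varied with Nr4a1. Fos, a subunit of the AP-1 factor, was at 5.05 ± 0.31 (SD, n = 4) in hindlimb, 5.12 ± 0.09 (SD, n = 3) in shoulder and forelimb and 5.24 ± 0.29 (SD, n = 2) in head muscles. Egr1, a zinc finger factor, was at 4.74 ± 0.36, 4.35 ± 0.13 and 4.78 ± 0.52 in the same regions and numbers. Over the 9 arrays r with Nr4a1 was -0.21 for Fos and -0.02 for Egr1, 0.39 for Jun, 0.52 for Fosb, 0.55 for Junb, 0.68 for Egr3, 0.78 for Fosl2 and 0.87 for Egr2. It was above 0 for 26 of 33 genes, with a median of 0.41, against 0.05 over all genes. The share of all genes with r above 0 was not counted. These r hold the hindlimb and head values that chose Nr4a1, so they describe the genes and support nothing. With Nr4a3, Jun had the highest r of the list (0.86), with its top value, 8.31, in tibialis anterior.

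**Figure D4:**
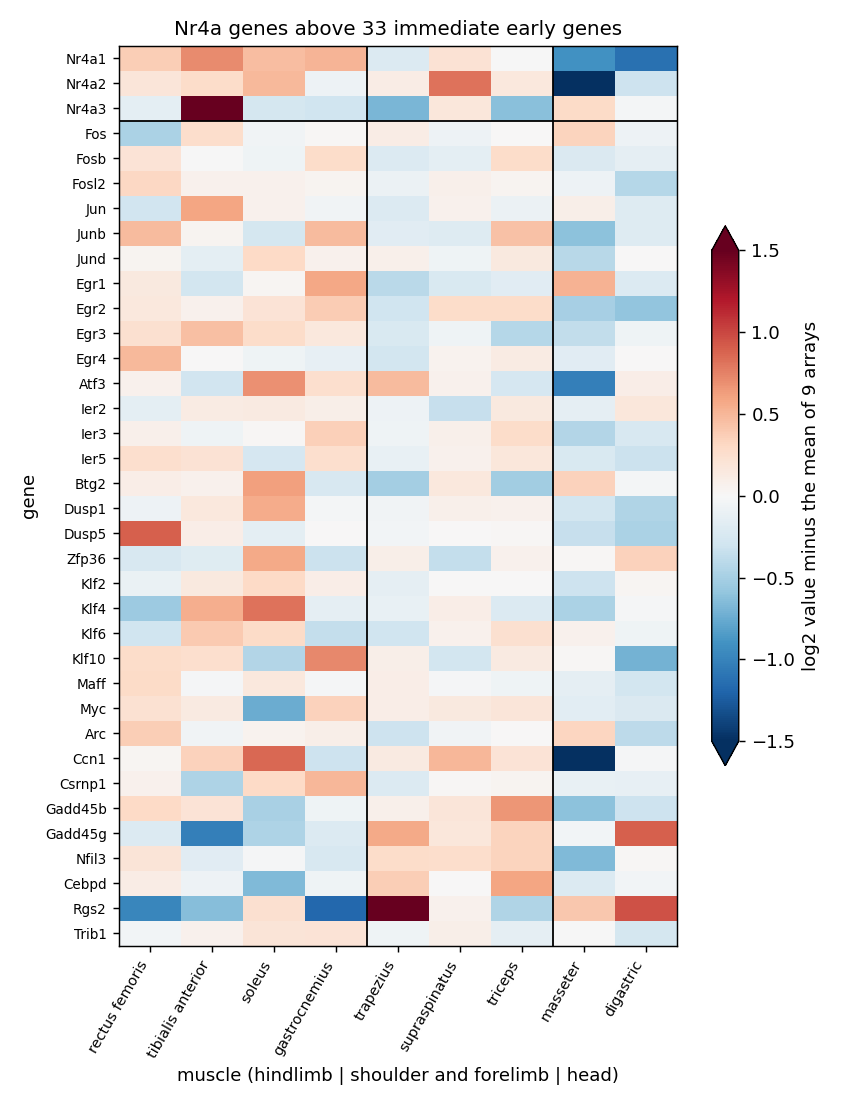
Log2 value minus the gene's own mean over 9 arrays (colour, which saturates at 1.5 in either direction) for the 3 Nr4a genes, above the line, and 33 immediate early genes (rows) in 9 muscles (columns, with black lines between regions). Nr4a1 was high in all 4 hindlimb arrays and low in both head arrays, while Fos and Egr1 showed no such split.

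The signalling genes upstream of the family were given by 2 lists. Of 23 measured genes of beta adrenergic, cAMP and CREB signalling 0 passed in any contrast, with medians of -0.12 between hindlimb and shoulder and forelimb and -0.09 between shoulder and forelimb and head muscles. Among its brightest probe sets, Prkaca, the catalytic subunit of protein kinase A, differed by -0.06 and -0.09 in the same contrasts, and the coactivator gene Crebbp by -0.17 and -0.11. The first Prkaca difference turned to 0.05 without trapezius and the second Crebbp difference to 0.04 without masseter. The next brightest, Prkar2a, was at 7.72 in hindlimb, 7.58 in shoulder and forelimb and 8.24 in head muscles. Pde4a was at 7.37, 7.67 and 7.38 in the same order. At an unadjusted limma p under 0.05, 0 of 23 were higher and 2 lower in the first contrast, beside 1.84% and 1.81% of genes. In the second 1 was higher and 2 were lower, Prkar2a among them, beside 3.17% and 3.75%. Between hindlimb and head muscles 0 were higher and 4 lower, beside 1208 and 1439 of 22180 genes. The 3 beta adrenergic receptor genes had no probe set of a single gene. Of 21 measured genes of calcineurin, CaM kinase, MEF2 and class IIa histone deacetylases 0 passed either, with medians of -0.02 and 0.02. Mef2d, a MEF2 factor, differed by 0.04 and -0.05, the second of which turned to 0.10 without masseter. Of the next brightest, Ppp3cb was at 8.17 in hindlimb, 8.27 in shoulder and forelimb and 8.89 in head muscles. Mef2c was at 8.23, 7.94 and 8.81 and Camk2a at 8.18, 8.46 and 7.78 in the same order. At an unadjusted limma p under 0.05, 0 of 21 differed in the first contrast, and 1 was higher and 0 lower in the second. Between hindlimb and head muscles 2 were higher and 0 lower. The calcineurin inhibitor gene Rcan1, named after its values were seen, had a hindlimb and head difference of 1.16, which was 0.72 without soleus, its highest array (9.82).

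The retinoid X receptors, dimer partners of Nr4a1 and Nr4a2, were all measured. Rxra differed by -0.13 between hindlimb and shoulder and forelimb muscles and by 0.37 between shoulder and forelimb and head muscles, Rxrg by -0.24 and 0.41 and Rxrb by -0.09 and 0.15, with 0 of 3 past the test. Both Rxrg directions rested on 1 array, with 0.07 in the first contrast without soleus and -0.05 in the second without digastric. Of 11 measured genes for proteins known to bind Nr4a receptors 0 passed, with medians of -0.01 and -0.18 in these contrasts. The coactivator gene Ncoa1 differed by -0.13 and -0.49. Of 23 other nuclear receptors 0 passed, with medians of -0.05 and -0.19, and the clock receptor gene Nr1d1 differed by 0.02 and 0.19, or -0.05 without supraspinatus and -0.09 without digastric.

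Of 23 measured genes of glucose, glycogen and lipid use that have been linked to Nr4a1 or Nr4a3 in rodent muscle, 0 passed in any contrast. Between hindlimb and shoulder and forelimb muscles 2 of 23 differences were positive and the median was -0.17, against -0.01 over all genes. Without soleus 10 of 23 were positive and the median was -0.13. Between shoulder and forelimb and head muscles 13 were positive, with a median of 0.05 against 0.04, and of -0.07 without trapezius. The glycogen phosphorylase gene Pygm differed by -0.10 and 0.39 and the muscle enolase gene Eno3 by -0.14 and 0.28 in these contrasts. Soleus was lowest for both (11.65 and 11.88), and without it their first differences were 0.13 and 0.04. The glucose transporter gene Slc2a4, named after its values were seen, ranged only from 9.49 to 10.02 over the 9 muscles. Of 14 measured CREB target genes 0 passed, with medians of 0.09, which was -0.08 without soleus, and 0.21. At an unadjusted limma p under 0.05, 0 were higher and 2 lower in the first contrast, beside 1.84% and 1.81% of all genes. In the second 4 were higher, Per1 among them, and 0 lower, beside 3.17% and 3.75%.

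All 9 arrays carried the markers of skeletal muscle, with Acta1, Ckm and Tnnt3 brightest on average and the log2 of the summed linear level of 10 markers from 15.25 to 15.57. In bulk muscle, fewer cells of a type and less RNA per cell cannot be told apart. Of the other cell type lists, 8 of 9 salivary markers were measured. Their summed level was 5.99 to 6.37 in hindlimb, 6.05 to 6.20 in shoulder and forelimb and 6.74 to 7.81 in head muscles. Masseter was highest, where Nr4a2 was lowest. Over the 9 arrays the salivary sum had r = -0.75 with Nr4a1 and -0.95 with Nr4a2. The masseter sum was carried by Klk1, at 7.28 there and from 0.91 to 1.93 in the 8 other arrays. Without Klk1, a choice made after seeing the data, the sum was 6.11 in masseter, 6.72 in digastric and 5.92 to 6.30 in the limb arrays. Summed myeloid markers (10 of 10 measured) were at 8.54 to 9.21, 8.80 to 9.64 and 8.05 to 8.47 in the same regions. Summed satellite cell markers (8 of 8 measured, among them Itga7) were at 8.38 to 8.57, 8.15 to 8.52 and 7.87 to 8.35, with r = 0.64 with Nr4a1 and 0.76 with Nr4a2 over the 9 arrays. Summed fibroblast markers (7 of 8 measured) were at 11.70 to 12.09, 11.55 to 12.14 and 11.24 to 11.77, with r = 0.53 and 0.66, and the myeloid sum had r = 0.44 and 0.59. Summed lymphocyte markers (9 of 10 measured, 7 of them with a mean below the array medians) were at 6.18 to 6.66, 6.25 to 6.43 and 6.11 to 6.20, with r = 0.56 and 0.29. Itga7, the brightest satellite marker on average, was picked above for its likeness to Nr4a2. The satellite r of 0.76 and that likeness share this gene and are not independent. Itga7 was lowest in masseter (6.14). Of the next brightest satellite markers, Vcam1 was also lowest there (4.13), while Cdh15 (5.46) and Heyl (5.28) were not. The satellite sum without Itga7 was not tested. The masseter array was lowest for the myeloid, satellite, fibroblast and lymphocyte sums, as it was for Nr4a2. It was also lowest for the Schwann cell (7.32) and neutrophil (5.43) sums, whose r with Nr4a2 was 0.64 and -0.05. It was not lowest for the smooth muscle, white adipocyte or endothelial sums. Summed endothelial markers (10 of 10) were at 9.75 to 10.95, 10.03 to 10.29 and 10.64 to 10.87. They had r = -0.41 with Nr4a1 and -0.21 with Nr4a2. The skeletal muscle sum had r = -0.42 and -0.49 and the smooth muscle sum -0.31 and -0.18. For the neutrophil sum r with Nr4a1 was -0.45. White adipocyte markers had their highest sum in trapezius (11.48, and 9.30 to 10.43 elsewhere), with r = -0.16 and 0.17. Summed slow fibre genes did not exceed 11.04 outside the soleus, where they were highest, while Nr4a1 in soleus (8.84) lay among the other hindlimb muscles. The part of these cells in the Nr4a values was not tested.

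The SD over probe sets was lower in triceps, rectus femoris and gastrocnemius (1.919 to 1.957) than in the 6 other arrays (2.033 to 2.077). Among those 6 arrays, 2 per region, Nr4a1 differed by 0.57 between hindlimb and shoulder and forelimb and by 1.03 between shoulder and forelimb and head muscles. Between the 3 arrays of narrower range the hindlimb and shoulder and forelimb difference was 0.45. Nr4a2 differed by 1.43 and Nr4a3 by -0.38 between shoulder and forelimb and head muscles among the 6 arrays.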

How the data were processed

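Expression was measured on 9 GeneChip arrays, 1 per muscle. The authors deposited log2 values for 41345 probe sets. Per the submitters' processing notes they were made with GCRMA, whose version is not stated there. This method subtracts background estimated from probe sequence and makes the arrays comparable. No detection calls were used, so a low value may be background, and the number of arrays limits the precision.

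The annotation of the array named 1 gene for 23521 probe sets and several for 1814. Symbols were brought up to date by Entrez identifier with the RefSeq GRCm38.p6 gene table (23328 matched). The brightest probe set on average was kept for the 1082 genes with several, which left 22180 genes. The sources used here name no genome build for the array. Region means were estimated for all arrays together with lmFit and eBayes (limma 3.58.1, R 4.3.3), and 2-sided p-values were adjusted by Benjamini-Hochberg over all genes, with a threshold of 0.05. They set a difference of region means against the spread within regions, which holds differences between muscles, animals and arrays together. In simulated data 200 of 22180 genes were changed by 1 or 2 (log2), with independent noise. There the test found 55% of changes of 1 between hindlimb and shoulder and forelimb muscles. It found 41% of such changes between shoulder and forelimb and head muscles. The adjusted threshold is easier to pass where many genes change, and in the real data 1 and 0 genes passed in these contrasts. These shares may therefore overstate what the test could find here.

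The members and lists were chosen with earlier results of these data known. Named were the members, the 5 genes most like each, and in each list up to 4 members with the highest mean and any immediate early gene. Genes outside this rule are said to be named after their values were seen. Alternatives were 3 scalings, a filter on dim genes, averaged probe sets, robust eBayes with a variance trend, a fit of just the 2 regions compared, the trapezius counted with the head, a slow fibre score, the value range as a term, only the arrays of wider range, and each array left out in turn. Promoter windows are from RefSeq on GRCm38.p6.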

Additional observations from a re-analysis of the deposited data

Results flagged for a closer look

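Nr4a3 in tibialis anterior, at a log2 value of 6.32, lay far from the 3 other hindlimb arrays (4.46 to 4.61). Its gap to the nearest of them was 0.92 of the range of the group, above Dixon's 95% critical value of 0.829 for 4 samples. Of 3 genes tested in the hindlimb group, at both ends, this was the single such value, and chance alone marks some groups in this way. Nr4a1 was also highest in tibialis anterior (9.09), with a share of 0.59, under the critical value. There is 1 array of this muscle, so the value has no replicate check.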

How the results depend on the processing

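Over 20 alternatives 0 members passed between hindlimb and shoulder and forelimb or between shoulder and forelimb and head muscles. The Nr4a1 difference ran from 0.41 to 0.63 in the first and from 0.85 to 1.15 in the second contrast. That of Nr4a2 between hindlimb and shoulder and forelimb was 0.08 without supraspinatus, opposite to -0.14 over all arrays (-0.27 to 0.08 with 1 array left out). The hindlimb and head difference of Nr4a1 was 1.73 after quantile and 1.77 after cyclic loess normalization, and 1.25 with the trapezius counted with the head muscles. That of Nr4a2 ran from 0.52 to 1.84 with 1 array left out. With 1 head array left out, the lone one is assumed to vary like the other groups. Over all genes, calls between hindlimb and head muscles numbered 1 with median centring, with trend and robust settings, with only the arrays of both groups, with the trapezius in the head group, with the value range as a term and in the 6 arrays of wider range. The Nr4a1 call was lost under each of these alternatives. All-gene calls numbered 4 with the slow fibre score, where that of Nr4a1 was also lost, and 0 (without masseter) to 19 (without soleus) with 1 array left out. Calls between shoulder and forelimb and head muscles then ran from 0 to 4. With 1 array left out, r of Nr4a1 and Nr4a3 ran from -0.34 to 0.36 and r of Nr4a2 and Nr4a3 from -0.39 to 0.20. The immediate early median kept its sign under all 20 alternatives in each contrast. With 1 array left out, the median between hindlimb and shoulder and forelimb turned to at most 0.06 for the calcium and MEF2 genes, 0.02 for other nuclear receptors and 0.03 for Nr4a binding proteins. No paired analysis was possible because the labels carry no replicate numbers.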
